A study of Drosophila melanogaster with 12 samples.

Results

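Oxidative phosphorylation is carried out by 5 protein complexes of the inner mitochondrial membrane, and in Drosophila melanogaster many of their subunits are encoded by a pair of nuclear genes: a standard gene that is used throughout the body and a duplicate whose name ends in L. The genes described here were all nuclear genes whose annotated name begins with ND-, Sdh, UQCR-, COX or ATPsyn, the prefixes of complex I to complex V in that order. This rule found 88 of the 13771 genes in the files. They comprised 63 standard subunit genes (34 of complex I, 4 of complex II, 6 of complex III, 8 of complex IV and 11 of complex V), 20 paralogs named with a final L (4, 3, 3, 6 and 4 in the same order), 4 further paralogs whose name ends in L and a number, and 1 assembly factor, Sdhaf3. The rule used names only and no measured value, and all 88 passed the filter of a mean of at least 1 TPM over the libraries.

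Complexes I to IV pass electrons from NADH and succinate to oxygen and, except for complex II, pump protons across the membrane. Complex V, the ATP synthase, uses the proton gradient to make ATP. A small number of subunits are encoded in the mitochondrial genome and the rest, including all 88 genes here, in the nucleus. In the fly testis the mitochondria of each spermatid fuse into one large structure, the Nebenkern, which then elongates along the sperm tail, and many mitochondrial proteins have a duplicate gene that is transcribed mainly in male germ cells. Larval body wall muscle is another tissue that is rich in oxidative phosphorylation transcripts.

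The RNA came from whole larvae of the last larval stage (L3) in 4 groups of 3 libraries each: clamp null males (libraries 4, 5 and 6), control males (libraries 1, 2 and 3), clamp null females (libraries 4, 5 and 6) and control females (libraries 1, 2 and 3). The clamp null larvae had the genotype yw; clamp2, a null allele of the zinc finger protein CLAMP present in every cell of the animal, and the controls were yw, so that both genotypes carried the yw background. The study's text says that clamp null larvae do not pupate and that homozygous males die before late L3, so stage and genotype cannot be told apart in these groups. The libraries were made from poly(A) RNA. The study's text gives the male and female larvae as 3 each, and its checklist calls the study's replicates biological. Nothing in the labels says that the 3 libraries of a group came from separate cultures or animals. The p-values below therefore measure the spread between these libraries.

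Each library held transcript abundances in TPM (transcripts per 1000000), a length-normalised unit with the same sum in every library, and transcripts were summed to genes. No counts were given, so the depth is unknown and no counting error can be attached to a value, including the values listed at 0. Between 8665 and 11321 genes reached 1 TPM in a library. The targeted gene, Clamp (FBgn0032979, 2L from 22165720 to 22169143), was at 22.8, 21.4 and 21.9 TPM in clamp null males, against 59.2, 58.5 and 43.4 TPM in control males, and at 19.4, 16.2 and 20 TPM in clamp null females, against 39.4, 45.1 and 36.3 TPM in control females. Differences were tested with limma on log2(TPM + 1) over 11145 genes, with Benjamini-Hochberg adjustment over all of them, and a gene was called at an adjusted p below 0.05. Fold changes are on this log2(TPM + 1) scale, which understates the change of genes near 0 TPM. Clamp fell by 1.24 in males (SE 0.20, adjusted p = 0.000332) and by 1.08 in females (SE 0.20, adjusted p = 0.00276).

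The clamp null male libraries were not alike in testis marker transcripts. The 33 testis markers were mostly genes of spermatocytes and sperm, with the cyclin gene CycB among them. Of these, 4, 10 and 31 reached 1 TPM in clamp null male libraries 4, 5 and 6, against 32, 31 and 32 in control males. Their summed level was 19.3, 27.2 and 707 TPM in clamp null males, against 3188, 3730 and 4683 TPM in control males. In females it was 11.5 to 23.8 TPM in clamp null larvae, against 34.3 to 89.6 TPM in controls. The low sums are not of testis genes alone. CycB was at 5.55, 4.96 and 9.77 TPM in clamp null males and at 13.7, 23.1 and 16.4 TPM in control females. Markers that define spermatocytes and sperm were mostly at or near 0 in libraries 4 and 5. Among them was aly, a regulator of spermatocyte transcription. It was at 0, 0 and 2.32 TPM in clamp null males, against 7.69, 8.96 and 5.41 TPM in control males. Of 31 markers tested, 30 were called lower in clamp null males, where 45.8% of all genes were. The other, mia, was at 0.576, 1.39 and 2.06 TPM, against 2.6, 1.69 and 3.18 TPM in control males. The 2 libraries labelled clamp null male 4 and 5 thus nearly lack the testis transcripts of a male larva, and library 6 holds them at a reduced level. Over all genes, libraries 4 and 5 correlated with the clamp null females at 0.958 to 0.965 (Pearson, log2 scale). With clamp null male 6 they correlated at 0.895 and 0.869. The sex of every library rests on its title, because the labels' sex field goes with genotype, and was not tested. The main results of the male comparisons that rest on libraries 4 and 5 are therefore also given with library 6 as the only clamp null male. In this fit that single library is assumed to vary like the other groups, which supply all of the spread. Counts by complex and chromosome, muscle and late L3 markers, transcript shares and the differences between the sexes of the standard genes are not given in this way. In whole larvae, fewer cells of a type and less RNA per cell cannot be told apart.

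The L paralogs were nearly absent from clamp null males 4 and 5, at a lower summed level in clamp null male 6 and present in every control male. Summed over the 20 genes, they reached 6.68, 6.18 and 125 TPM in clamp null males, against 574, 580 and 775 TPM in control males (exact permutation p = 0.1, two-sided, the smallest that 3 against 3 libraries allow), and 12.5, 9.57 and 7.35 TPM in clamp null females, against 3.14, 18.1 and 2.07 TPM in control females. Between 5.95 and 97.0 TPM was found for each paralog in each control male library, whereas no paralog exceeded 4.18 TPM in any female library. In clamp null males 4 and 5, 15 of the 20 were listed at 0 in both libraries and none exceeded 5.13 TPM.

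Of the 20 L paralogs, 19 were lower in clamp null males than in control males and none was higher, where 45.8% of all genes tested were called lower and 11.3% higher. The median log2 fold change was −3.85 (range −5.05 to −2.15), beside −0.75 over all genes. The 3 clamp null male values all lay below the 3 control male values for 19 of the 20, and for 51.1% of all genes. Between the sexes of the control genotype, 19 of the 20 were higher in control males than in control females, where 23.2% of all genes were called higher and 1.56% lower, with a median of 4.62 (range 2.92 to 5.88), beside 0.34 over all genes. All 20 were above every control female library in every control male library, which held for 37.9% of all genes. Both comparisons use the same control male libraries.

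**Figure D1:**
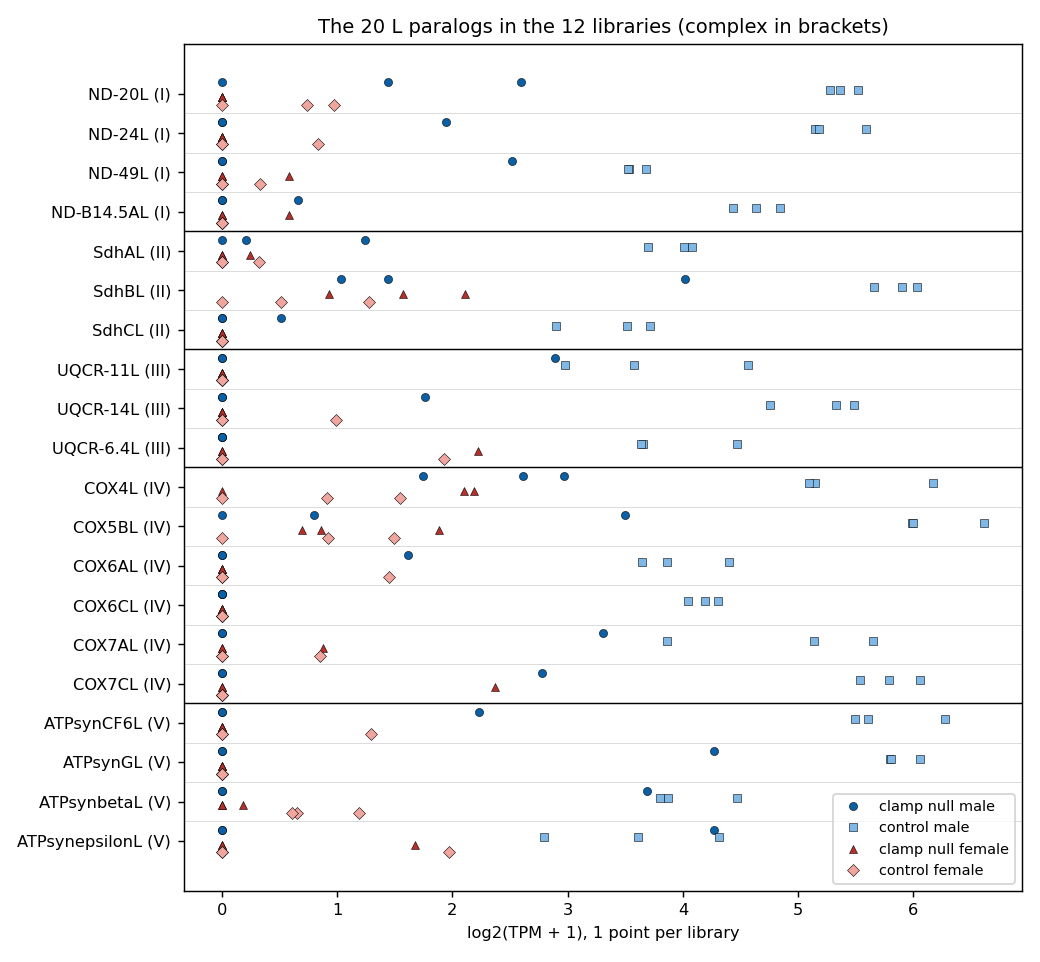
Level of each of the 20 L paralogs (vertical axis, complex in brackets) as log2(TPM + 1) (horizontal axis), with 1 point per library in the 4 groups. The 3 control male points of every paralog correspond to 5.95 to 97.0 TPM, the single dark blue point that stands to the right of the other clamp null males in most genes is library 6, and the female points all correspond to 4.18 TPM or less.

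Complex I takes up electrons from NADH through an arm of flavin and iron-sulfur subunits that extends into the matrix. ND-20L, the paralog of an iron-sulfur subunit (FBgn0039669, 3R from 29515717 to 29516527), was at 1.72, 0 and 5.03 TPM in clamp null males, against 37.8, 40.1 and 44.8 TPM in control males, a log2 fold change of −4.04 (SE 0.52, adjusted p = 7.2e-05). It was listed at 0 in all 3 clamp null females, against 0, 0.960 and 0.664 TPM in control females. ND-24L (3L from 17319969 to 17320811), whose standard partner also binds an iron-sulfur cluster, was at 0, 0 and 2.84 TPM in clamp null males, against 34.3, 47.2 and 35.3 TPM in control males. In both genes the groups are far apart, and library 6 is the highest of the clamp null males. ND-49L (3R from 25358285 to 25360034), the paralog of a core subunit near the quinone site, was lower and more even in control males, with 0, 0 and 4.74 TPM in clamp null males, against 10.6, 10.5 and 11.8 TPM in control males. ND-B14.5AL, the paralog of an accessory subunit, was at 0, 0 and 0.584 TPM in clamp null males, against 20.6, 23.8 and 27.7 TPM in control males.

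The numbered complex I paralogs of the flavoprotein subunit followed at lower levels. ND-51L1 was at 0.653, 0.642 and 3.31 TPM in clamp null males, against 9.12, 5.17 and 5.19 TPM in control males. ND-51L2 was listed at 0 in every library except the control males, which had 6.36, 3.57 and 6.89 TPM. Both were called lower in clamp null males (log2 fold changes −1.68 and −2.68).

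Complex II, succinate dehydrogenase, links the TCA cycle to the electron transport chain and has a flavoprotein, an iron-sulfur protein and membrane anchors. SdhBL, the paralog of the iron-sulfur subunit and the only L paralog on the X chromosome (18894446 to 18896581), was at 1.71, 1.05 and 15.2 TPM in clamp null males, against 64.3, 49.4 and 58.7 TPM in control males. It also had low values in females, with 3.32, 0.905 and 1.98 TPM in clamp null females, against 1.42, 0.425 and 0 TPM in control females. SdhAL, the flavoprotein paralog, was at 0.153, 0 and 1.36 TPM in clamp null males, against 15.1, 12 and 15.9 TPM in control males. SdhCL, an anchor paralog, was at 0, 0 and 0.431 TPM in clamp null males, against 6.47, 12.1 and 10.4 TPM in control males, and was listed at 0 in all 6 females. In all 3 complex II paralogs the control males were highest and overlapped no other group.

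Complex III transfers electrons from ubiquinol to cytochrome c, and its 3 L paralogs encode small accessory subunits. UQCR-14L was at 0, 0 and 2.39 TPM in clamp null males, against 26.0, 43.8 and 39.2 TPM in control males. UQCR-6.4L was listed at 0 in all 3 clamp null males, library 6 included, against 11.6, 11.4 and 21.1 TPM in control males, and reached 3.67 TPM in 1 clamp null female and 2.81 TPM in 1 control female. UQCR-11L was at 0, 0 and 6.41 TPM in clamp null males, against 10.9, 6.85 and 22.7 TPM in control males, so that library 6 fell just below the lowest control male.

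Complex IV, cytochrome c oxidase, had the most L paralogs, all for nuclear accessory subunits. COX5BL reached the highest level of any L paralog, with 0.735, 0 and 10.3 TPM in clamp null males, against 62.6, 62.7 and 97.0 TPM in control males (log2 fold change −4.77). COX4L was at 2.36, 5.13 and 6.82 TPM in clamp null males, against 34.5, 33.1 and 70.9 TPM in control males. It also had 3.56, 0 and 3.28 TPM in clamp null females, against 0, 1.91 and 0.886 TPM in control females. COX7CL was at 0, 0 and 5.85 TPM in clamp null males, against 54.4, 45.4 and 65.5 TPM in control males. COX6CL was listed at 0 in every library except the control males, which had 15.5, 17.3 and 18.7 TPM, and its SE was therefore small (log2 fold change −4.18, adjusted p = 9.3e-07). COX6AL was at 0, 0 and 2.07 TPM in clamp null males, against 13.5, 11.5 and 20.1 TPM in control males, and the numbered COX6AL2 was close to it with 0, 0.958 and 2.93 TPM in clamp null males, against 13, 15.6 and 11.5 TPM in control males. COX7AL was at 0, 0 and 8.87 TPM in clamp null males, against 13.5, 34.2 and 49.1 TPM in control males.

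The numbered paralog COX7AL2 did not share this pattern. It was listed at 0 in all 3 clamp null males, against 0, 0 and 1.51 TPM in control males, and its highest value, 12.1 TPM, was in control female 2. It was called in none of the comparisons, with a log2 fold change of −0.44 in males (adjusted p = 0.59).

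Complex V paralogs included those with the highest values in clamp null male 6. ATPsynCF6L, the paralog of a stalk subunit, was at 0, 0 and 3.69 TPM in clamp null males, against 47.6, 44.0 and 76.3 TPM in control males, the largest fall of the L paralogs on the log2(TPM + 1) scale (−5.05, adjusted p = 3.1e-05). ATPsynGL was at 0, 0 and 18.3 TPM in clamp null males, against 54.6, 54.8 and 65.5 TPM in control males, and was listed at 0 in all 6 females. ATPsynbetaL, the paralog of the catalytic subunit, was at 0, 0 and 11.9 TPM in clamp null males, against 21.1, 13.6 and 12.9 TPM in control males. ATPsynepsilonL was at 0, 0 and 18.3 TPM in clamp null males, against 18.9, 5.95 and 11.2 TPM in control males, and was the single L paralog whose groups overlapped and that was not called (log2 fold change −2.15, adjusted p = 0.09). With library 6 as the only clamp null male, its log2 fold change was 0.70.

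Library 6 retained the L paralogs unevenly. As a percentage of the control male mean, the 20 paralogs in library 6 had a median of 13%, and the range ran from 0% for COX6CL and UQCR-6.4L to 74.8% for ATPsynbetaL and 152% for ATPsynepsilonL. UQCR-11L (47.6%), ND-49L (43.2%), ATPsynGL (31.5%), COX7AL (27.5%) and SdhBL (26.4%) lay between these ends. The testis markers in the same library had a median of 19.2% and were also uneven, with a range from 6.06% for S-Lap5 to 88.2% for Taf12L. The L paralog sum was 34.6%, 22.7% and 17.7% of the testis marker sum in clamp null males, against 18.0%, 15.5% and 16.5% in control males, and 108%, 60% and 30.9% in clamp null females, against 8.93%, 20.3% and 6.03% in control females. Outside the control males and library 6 these are ratios of sums that are both near 0. Whether the testis content of the libraries sets the level of the L paralogs was not tested. With library 6 as the only clamp null male, 16 of the 20 were called lower, where 32.5% of all genes were in that fit, with a median of −2.70 beside −0.74 over all genes. ATPsynbetaL, COX7AL and UQCR-11L lost their call.

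**Figure D2:**
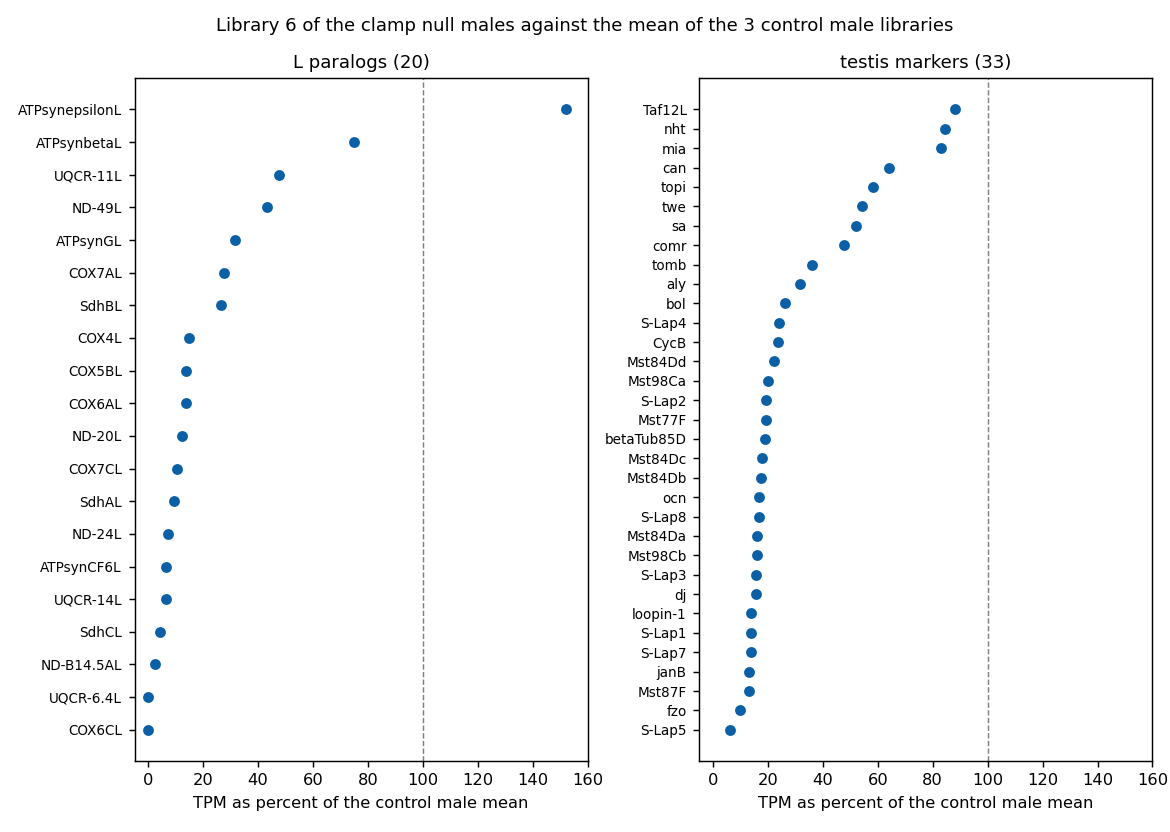
TPM in clamp null male 6 as a percentage of the mean of the 3 control males (horizontal axis), for the 20 L paralogs (left) and the 33 testis markers (right), each sorted by value, with a dashed line at 100%. Each point is 1 gene. The L paralogs have a median of 13% and the testis markers 19.2%, and ATPsynepsilonL at 152% is the single gene above the control mean.

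In females no difference by genotype was called for the L paralogs. None of the 20 was called in clamp null females against control females, where 9.80% of all genes were called higher and 15.6% lower by limma. None had an unadjusted p below 0.05, the smallest adjusted p was 0.331 and the median log2 fold change was 0.00, at levels so close to 0 TPM that a difference may not be detectable. When only the 6 female libraries were fitted, 1 was called lower. Between clamp null males and clamp null females none of the 20 was called either, where 0% of all genes were called higher and 0.0179% lower. At an unadjusted p below 0.05, 1 of the 20 (5%) was higher in males, where 3.77% of all genes were. With library 6 as the only clamp null male, 13 of the 20 were called higher than in clamp null females, where 12.2% of all genes were in that fit, so the count depends on libraries 4 and 5.

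The difference between the sexes in the genotype effect was tested as an interaction. It was called for 17 of the 20 L paralogs, all lower in males, with a median of −3.90, and for 14.2% of all genes lower and 0.493% higher. COX7CL (−5.66) and COX5BL (−5.11) had the largest values, and UQCR-11L, ATPsynbetaL and ATPsynepsilonL were not called. With a pseudocount of 0.1 in place of 1 the count was 4. With library 6 as the only clamp null male it was 12, where 12.7% of all genes were called lower in that fit.

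Each L paralog was also set against its standard partner, as the share of the pair's summed TPM that came from the paralog. Over the 20 pairs the share had a median of 0.506% in clamp null males, against 16.1% in control males, and of 0.0208% in clamp null females, against 0.162% in control females. By library, the median pair was at 0%, 0% and 1.2% in clamp null males, against 13.2%, 16% and 17.4% in control males, so that library 6 alone lifts the clamp null male value above 0. Between clamp null and control males the exact permutation p was 0.1 (two-sided) for every pair except that of ATPsynepsilonL, where it was 0.2. In control males ND-20L supplied 39.3% ± 2.76 of its pair with ND-20 and ND-24L 33.6% ± 3.00 with ND-24 (SD, n = 3). UQCR-11L supplied 33% ± 11.2 with UQCR-11 and SdhBL 32.6% ± 6.04 with SdhB. The next 13 pairs were COX5BL with COX5B at 27.2%, ATPsynGL with ATPsynG at 25.1%, ND-49L with ND-49 at 24.2%, COX7CL with COX7C at 17.8%, SdhAL with SdhA at 17.5%, ND-B14.5AL with ND-B14.5A at 16.4% and UQCR-14L with UQCR-14 at 15.9%, and below these ATPsynCF6L with ATPsynCF6 at 12.4%, COX4L with COX4 at 11.8%, ATPsynbetaL with ATPsynbeta at 11%, SdhCL with SdhC at 10.2%, COX7AL with COX7A at 9.86% and UQCR-6.4L with UQCR-6.4 at 9.56%. At the other end COX6CL gave 4.94% of its pair with cype, COX6AL 3.22% of its pair with levy and ATPsynepsilonL 2.63% of its pair with sun. These partners (cype, levy and sun) are standard subunits with older fly names, and so stand outside the 63. In library 6 the highest pair share was 6.26%, that of UQCR-11L. For 13 of the 20 pairs the paralog lay on another chromosome arm than its partner. For 5 of these the partner was X-linked and the paralog autosomal (ND-20L, ND-24L, ND-B14.5AL, UQCR-14L and ATPsynepsilonL), and for SdhBL the paralog was on the X.

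**Figure D3:**
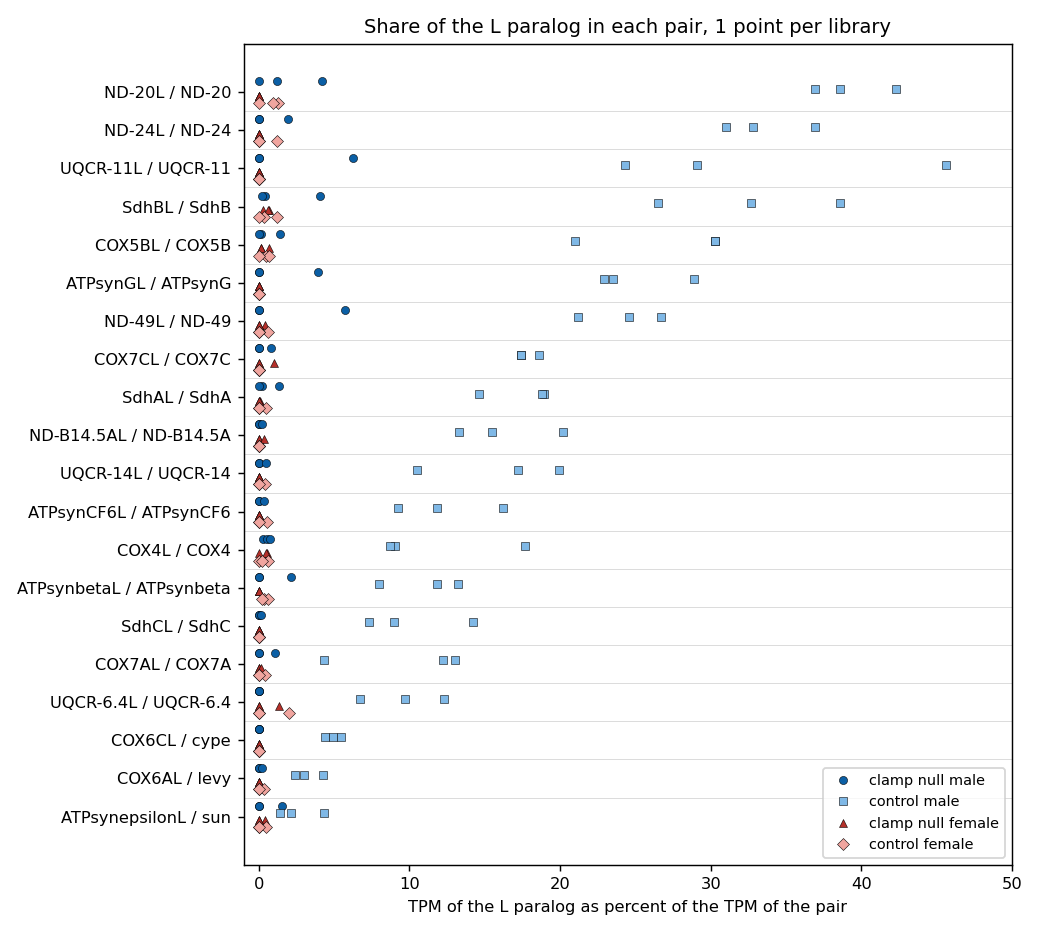
TPM of the L paralog as a percentage of the TPM of its pair (horizontal axis) for the 20 pairs of L paralog and standard partner (vertical axis), with 1 point per library in the 4 groups. Control males hold the highest shares, with means from 2.63% for ATPsynepsilonL to 39.3% for ND-20L, and ATPsynepsilonL is the single pair in which a clamp null male point overlaps them.

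The standard subunit genes moved the other way. Summed over the 63 genes they took 24668, 25382 and 29278 TPM in clamp null males, against 10843, 11187 and 12445 TPM in control males, a ratio of the means of 2.30. In females the sums were 21667, 23707 and 20088 TPM in clamp null larvae, against 9351, 11337 and 15534 TPM in controls, a ratio of 1.81. The groups did not overlap in either sex (exact permutation p = 0.1 in each, two-sided).

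In males 52 of the 63 standard genes were higher in clamp null than in control libraries and 1, ND-B8, was lower, where 11.3% of all genes were higher and 45.8% lower. Their median log2 fold change was 1.0, beside −0.75 over all genes, so that the standard genes lay 1.75 above the median gene. Of all calls in this comparison 19.8% were higher. Under median-of-ratios scaling, which moved the median over all genes to −0.24, 38.5% were higher. In that setting 59 standard genes were called higher and 1 lower, where 2027 of all 11145 genes were higher and 3232 lower. With library 6 as the only clamp null male, 50 were higher (8.08% of all genes in that fit) and 1 lower, with a median of 1.26. In females 34 of the 63 were higher and none lower, where 9.80% of all genes were higher and 15.6% lower. Their median was 0.82, beside −0.20 over all genes and thus 1.03 above it. Median-of-ratios scaling gave 42 standard genes higher and none lower, where 1498 of all 11145 genes were higher and 1241 lower. It moved the higher share of all calls in females to 54.7%, against 38.5%. By complex, the genes called higher were 26 of 34 in males and 14 of 34 in females for complex I, 2 of 4 and 3 of 4 for complex II, 6 of 6 and 4 of 6 for complex III, 7 of 8 and 4 of 8 for complex IV, and 11 of 11 and 9 of 11 for complex V. Complex V had the largest ratio of summed TPM in males, 2.77, and complex I the smallest, 1.78 in males and 1.45 in females. In females complexes III and V were both at 2.14 and complex II at 2.13. Every clamp null library lay above every control library for 56 genes in males, where this held for 12.5% of all genes. In females it held for 40 genes and for 14.4% of all genes. Of the 63, 32 were called higher in both sexes, 20 in males only, 2 in females only (ND-24 and SdhA) and 9 in neither. The shares of all genes in these 4 classes were not computed. A call in 1 sex only is not a test of a difference between the sexes, which is given below.

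**Figure D4:**
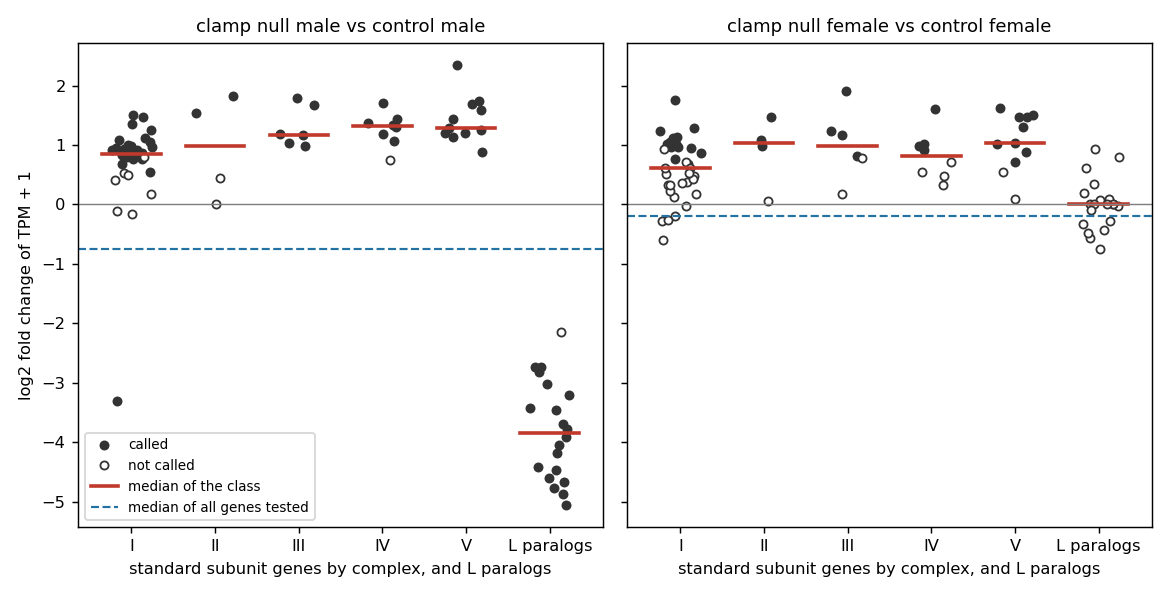
Log2 fold change of TPM + 1 (vertical axis), clamp null against control, in males (left) and females (right), for the standard genes of complexes I to V and for the L paralogs. Each point is 1 gene, filled where called, with the median of each class as a red bar and that of all genes tested as a dashed line (−0.75 in males, −0.20 in females). Standard genes lie mostly above 0 in both sexes, apart from ND-B8 at −3.31 in males, while the L paralogs lie between −5.05 and −2.15 in males and have a median of 0.00 in females.

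ATPsynbeta, the catalytic subunit of the ATP synthase (chromosome 4, 1031484 to 1034917), had the largest rise among the standard genes in males. It was at 688, 740 and 552 TPM in clamp null males, against 139, 102 and 148 TPM in control males (log2 fold change 2.35, SE 0.22, adjusted p = 1.2e-05), and at 658, 630 and 587 TPM in clamp null females, against 155, 211 and 250 TPM in control females (1.63, adjusted p = 0.00044). The highest complex V transcript was ATPsynF, a subunit of the membrane part. It was at 2349, 2238 and 2121 TPM in clamp null males, against 678, 768 and 791 TPM in control males, and at 1523, 2037 and 1595 TPM in clamp null females, against 562, 818 and 1283 TPM in control females (1.58 in males and 1.02 in females). Neither gene had overlapping groups in either sex, although control female 3 came closest to the clamp null range for both.

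SdhB, the iron-sulfur subunit of complex II (2R from 6807626 to 6809172), was at 397, 536 and 357 TPM in clamp null males, against 102, 137 and 121 TPM in control males, and at 468, 351 and 328 TPM in clamp null females, against 114, 130 and 169 TPM in control females (1.82 in males and 1.47 in females). The other complex II genes were less uniform. SdhA was called in females but not in males, where its log2 fold change was 0.45, and the anchor gene SdhD was at −0.00 in males. In complex III, UQCR-C1, a core protein, was at 526, 634 and 620 TPM in clamp null males, against 156, 201 and 200 TPM in control males, and at 850, 659 and 508 TPM in clamp null females, against 112, 177 and 266 TPM in control females (1.68 in males and 1.91 in females). UQCR-Q, a small subunit and the highest of the complex, was at 580, 773 and 803 TPM in clamp null males, against 298, 348 and 409 TPM in control males, and at 551, 638 and 567 TPM in clamp null females, against 258, 234 and 255 TPM in control females (1.03 in males and 1.23 in females). UQCR-11 was called in males (1.79, adjusted p = 0.0011) but not in females (0.78, adjusted p = 0.13). The difference between the sexes was not called for SdhA, SdhD, UQCR-C1, UQCR-Q or UQCR-11.

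In complex IV the highest gene was COX5A, an accessory subunit, at 1404, 1243 and 1594 TPM in clamp null males, against 569, 656 and 639 TPM in control males (1.18, adjusted p = 0.003). In females the groups overlapped, with 783, 1191 and 964 TPM in clamp null larvae, against 433, 674 and 970 TPM in controls (0.55, adjusted p = 0.15). COX7C was the single complex IV gene that was not called in males (0.75). In complex I, ND-SGDH, an accessory subunit, was at 239, 285 and 209 TPM in clamp null males, against 76.7, 83.6 and 101 TPM in control males, and at 212, 301 and 220 TPM in clamp null females, against 57.5, 75.1 and 82.7 TPM in control females (1.47 in males and 1.75 in females). The highest complex I gene, ND-B12, changed less, with 604, 535 and 876 TPM in clamp null males, against 327, 370 and 440 TPM in control males (0.80, adjusted p = 0.03), and was not called in females (0.37, adjusted p = 0.39). The complex I genes that were not called in males included ND-13A (−0.16), ND-15 (−0.11) and ND-B17 (0.18), so the complex was not uniform.

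ND-B8 stood apart from the other standard genes. This accessory subunit of complex I (2L from 4454626 to 4455207) was listed at 0 in all 6 clamp null libraries, against 8.54, 3.25 and 23.2 TPM in control males and 0, 2.40 and 0 TPM in control females. It was called lower in clamp null males (−3.31, adjusted p = 0.00057) and higher in control males than in control females (2.73, adjusted p = 0.0037). The gene overlaps Gs1l on the other strand, the use of strand in the quantification is not given in the sources used here, and a value of 0 for a subunit of complex I may be a failed estimate, so these values say only what is listed. In all, 44 of the 88 genes overlap another gene in the annotation (31 standard genes and 9 L paralogs among them), and reads from the overlapping parts may be assigned to either.

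Sex made little difference to the standard genes of the controls. Between control males and control females, 2 of the 63 were higher in males (ND-B8 and ND-B22) and 2 were lower (ND-AGGG and ND-MLRQ), where 23.2% of all genes were higher and 1.56% lower, with a median of −0.01, beside 0.34 over all genes. Under median-of-ratios scaling 1 was higher and 5 were lower, where 2066 of all 11145 genes were higher and 393 lower. The higher share of all calls was then 84.0%, against 93.7%. ND-B22, an accessory subunit of complex I, was at 134, 140 and 158 TPM in control males, against 76.5, 77.7 and 113 TPM in control females (0.71, adjusted p = 0.035), a call that was lost under median-of-ratios scaling (0.39, adjusted p = 0.366). ND-AGGG was at 62.0, 52.0 and 76.5 TPM in control males, against 105, 137 and 124 TPM in control females (−0.94). ND-MLRQ was at 210, 203 and 247 TPM in control males, against 312, 399 and 348 TPM in control females (−0.68). Leaving out 1 library at a time gave 1 to 3 higher and 0 to 4 lower. ND-AGGG and ND-MLRQ both lost their call without control male 1, control male 2, control female 2 or control female 3. ND-B22 lost its call without control male 1, 2 or 3, without control female 1 or 2, and with the replicate block. Without the variance trend ND-B22 and ND-MLRQ lost their calls. Between clamp null males and clamp null females none of the 63 was called by limma, although the males were higher in the median by 0.28. At an unadjusted p below 0.05, 5 (7.94%) were higher, where 3.77% of all genes were, and the groups did not overlap in the male direction for 13, where this held for 4.61% of all genes.

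The difference between the sexes in the genotype effect was called for 2 standard genes. ND-MLRQ was at 482, 445 and 681 TPM in clamp null males, against 210, 203 and 247 TPM in control males (1.26), and at 444, 412 and 471 TPM in clamp null females, against 312, 399 and 348 TPM in control females (0.33), a difference of 0.93 (adjusted p = 0.0427). For ND-B8 the difference was −2.73 (adjusted p = 0.046). Neither call held with the replicate number as a block (adjusted p = 0.074 and 0.109). For the other 61 standard genes a difference between the sexes in the genotype effect was not shown.

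By chromosome, the 12 X-linked standard genes had a median log2 fold change of 0.98 in males (range 0.50 to 1.35, 10 called higher), and the 49 on autosomal arms also had 0.98 (40 called higher), beside −0.73 for all X-linked and −0.76 for all autosomal genes. Of all genes tested, 173 of 1756 on the X and 1080 of 9296 on the autosomal arms were called higher in males. In females the medians were 0.74 on the X (7 called higher) and 0.87 on the autosomal arms (25 called higher). For all genes they were −0.33 and −0.18, with 128 of 1756 and 958 of 9296 called higher. Between control males and control females the X-linked standard genes had a median of −0.02 (range −0.28 to 0.53). The 2 standard genes of chromosome 4, ATPsynbeta and ND-49, were at 2.35 and 1.5 in males and 1.63 and 0.96 in females, while the median over all genes of that chromosome was −0.11 in males and 0.10 in females. No test of a difference between chromosomes was run.

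Marker transcripts of muscle and of late L3 also differed between the genotypes. The summed level of 13 larval muscle markers was 29991, 38693 and 31480 TPM in clamp null males, against 7461, 6514 and 8609 TPM in control males, and 40441, 36178 and 30821 TPM in clamp null females, against 8359, 7663 and 12883 TPM in control females. Of the 13, 12 were called higher in males, where 11.3% of all genes were, and 13 in females, where 9.80% were. The ratio of the means was 4.44 in males and 3.72 in females, larger than that of the standard subunit genes, which came to 65.6% to 93.0% of the muscle sum in clamp null males, against 145% to 172% in control males. Late L3 genes, 10 in number and 6 of them Sgs genes for salivary gland glue proteins, moved in the opposite direction. They took 50.5 to 2770 TPM in clamp null males, against 121848 to 158767 TPM in control males, and 423 to 7609 TPM in clamp null females, against 93125 to 171178 TPM in control females. All 10 were called lower in males, where 45.8% of all genes were, and 8 in females, where 15.6% were. Because TPM is a share of the library, the libraries were also rescaled to the TPM outside these genes. The standard genes then summed to 24680 to 29280 in clamp null males, against 12740 to 14371 in control males, and 20243 to 23738 in clamp null females, against 11283 to 17130 in control females. With TPM rescaled in this way, 45 of the 63 were called higher in males and 31 in females, beside 1054 and 953 of all 11135 genes. The part of muscle content in the change of the standard genes was not tested.

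**Figure D5:**
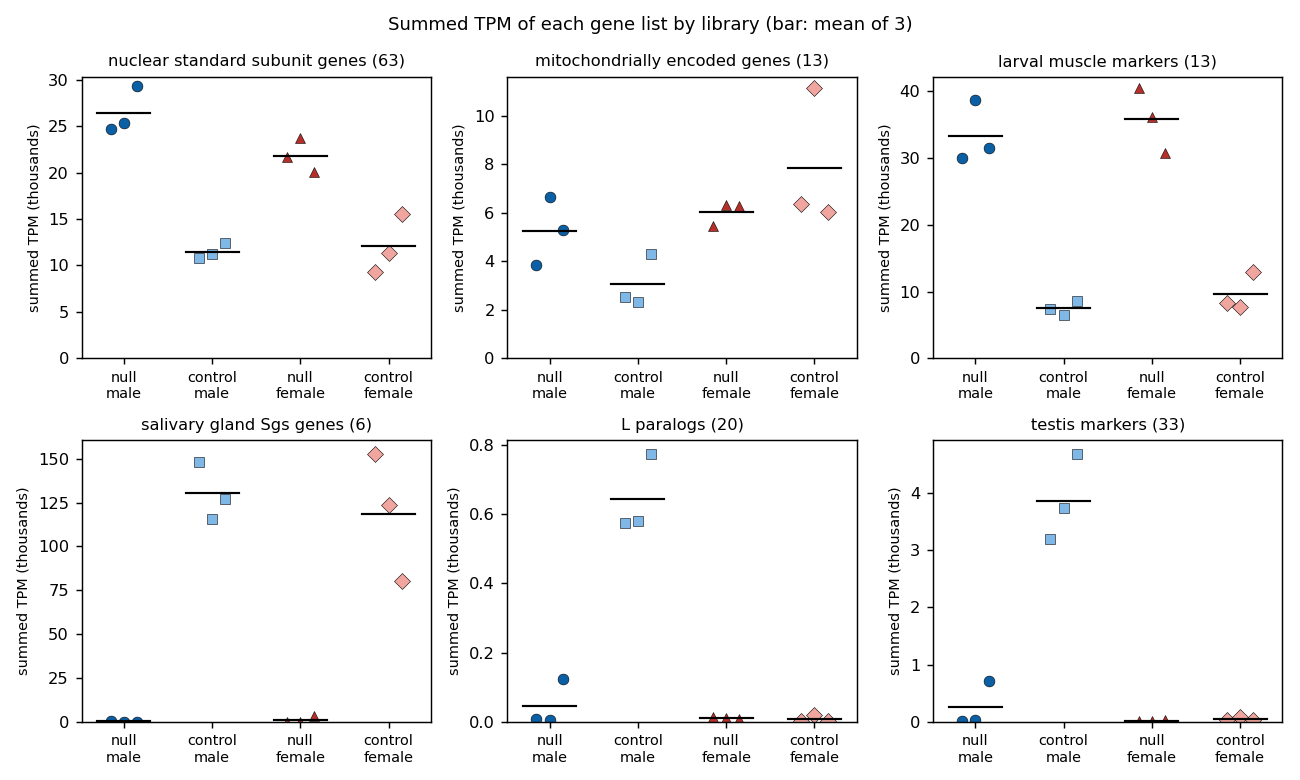
Summed TPM (vertical axis, in kilo-TPM) of 6 gene lists in each library, with 1 point per library, a bar for the mean of the 3 libraries of a group and a separate axis for each panel. Standard subunit genes and muscle markers are higher in every clamp null library of both sexes than in the controls of that sex, the 6 salivary gland Sgs genes are lower, the mitochondrially encoded genes overlap between genotypes, and the L paralogs and testis markers are high in the 3 control males, with clamp null male 6 at 125 and 707 TPM.

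Subunits and partners with other names were counted separately. Of 10 further electron transport and ATP synthase genes, 7 were higher and 2 lower in males, and 4 were higher and none lower in females. Of all genes, 11.3% were higher and 45.8% lower in males, and 9.80% higher and 15.6% lower in females. Cyt-c1, the catalytic cytochrome subunit of complex III, was at 240, 242 and 259 TPM in clamp null males, against 40.4, 53.2 and 59.4 TPM in control males, and at 197, 233 and 175 TPM in clamp null females, against 48.3, 71.5 and 129 TPM in control females (2.27 in males, adjusted p = 8.81e-05, and 1.38 in females). Cyt-c-p, the cytochrome c of the body, was higher by 2.34 in males, blw, the alpha subunit of the ATP synthase, by 1.69 in males and 1.68 in females, and RFeSP, the Rieske protein, by 1.29 in males and 1.24 in females. The 2 that fell in males were testis forms. Cyt-c-d, a cytochrome c used in spermatids, was at 1.21, 0 and 30.5 TPM in clamp null males, against 140, 143 and 179 TPM in control males (−5.23, adjusted p = 0.000721). Cyt-c1L was at 0, 0 and 4.56 TPM in clamp null males, against 21.3, 26.6 and 25.5 TPM in control males. In the fit with library 6 as the only clamp null male, the median log2 fold change of the 10 was 1.42, beside −0.74 over all genes.

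Among 19 TCA cycle genes, which supply NADH and succinate to complexes I and II, 11 were higher and 5 lower in males. In females 10 were higher and none lower. Of all genes, 11.3% were higher and 45.8% lower in males, and 9.80% higher and 15.6% lower in females. The 5 lower in males are thus a smaller share than among all genes. The citrate synthase gene kdn rose by 2.30 in males and 2.59 in females, Idh3a by 2.03 and 2.72, and Mdh2 by 2.14 and 1.86. The 5 that fell in males were Fum2 (−2.97), Fum3 (−4.36), Fum4 (−3.29), Scsalpha2 (−4.17) and CG33791 (−3.84). Of 9 genes for carriers, porins and fusion, 4 were higher and 3 lower in males, and 5 were higher in females. The 3 lower in males are also a smaller share than among all genes. The nucleotide carrier gene sesB rose by 1.78 in males and 1.02 in females and the phosphate carrier gene Mpcp1 by 3.17 in both, while Ant2 (−3.20), Porin2 (−4.77) and fzo (−3.72), the fusion factor of spermatids, fell in males. Of 8 genes of mitochondrial transcription and replication none was higher, 3 were lower in males and 2 in females. The male count is below the 45.8% of all genes that were lower, and the list median of −0.57 lies above that of all genes, −0.75. The 3 in males were Ets97D (−1.29), the homolog of mammalian GABPA, ewg (−1.05), the homolog of NRF-1, and srl (−0.89), the homolog of PGC-1, all of which act on nuclear genes for mitochondrial proteins. The 2 in females were ewg (−1.06) and mtSSB (−1.11). When library 6 was the only clamp null male, the median log2 fold change was 0.47 for the TCA cycle list. It was 0.28 for carriers, porins and fusion and −0.31 for mitochondrial transcription and replication, beside −0.74 over all genes. Of the genes named here, Mpcp1 (2.43), Ant2 (−0.93) and srl (−0.87) lost their call in that fit, in which the other groups supply the spread.

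The 13 subunit genes encoded in the mitochondrial genome, a list that was added after values had been seen, moved less uniformly than the nuclear ones. Their sum was 3857, 6637 and 5301 TPM in clamp null males, against 2538, 2323 and 4311 TPM in control males, and 5465, 6308 and 6287 TPM in clamp null females, against 6347, 11149 and 6031 TPM in control females. The groups overlapped in both sexes. Of the 13, 4 were called higher in males, among them mt:Cyt-b (1.33, adjusted p = 0.00286), where 11.3% of all genes were. In females 2 of the 13 were called lower, mt:ND5 (−1.22) and mt:ND1 (−1.18), close to the share of 15.6% among all genes. None of the 13 was called in males with library 6 as the only clamp null male. In controls 7 were lower in males than in females, where 1.56% of all genes were. The list median was −1.34, beside 0.34 over all genes.

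Transcript use within the member genes was examined as the share of each transcript in its gene's TPM, a comparison that was also added after values had been seen. The members contributed 87 transcripts of 39 genes. In males 3 of the 87 were called between clamp null and control, close to the share of 3.54% among all transcripts tested, in females none (0.621%), between control sexes none (1.70%) and between clamp null sexes none (0.0762%). The 3 are given as a description. One transcript of ND-MWFE, a complex I accessory subunit, FBtr0112741, had shares of 0.011, 0.0194 and 0.0638 in clamp null males, against 0.282, 0.222 and 0.308 in control males (difference −0.239, SE 0.0502, adjusted p = 0.0327 by limma), and FBtr0112740 of the same gene rose by the same amount. One transcript of ND-B16.6, a complex I accessory subunit, FBtr0347282, had shares of 0.0581, 0.0464 and 0.0168 in clamp null males, against 0.363, 0.337 and 0.19 in control males (−0.256, SE 0.0555, adjusted p = 0.0362). In females the ND-B16.6 transcript was at 0.139, 0.110 and 0.124 in clamp null larvae, against 0.0969, 0.0725 and 0.0742 in controls.

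The assembly factor Sdhaf3, which helps to mature the iron-sulfur subunit of complex II, was called in no comparison, with 23.7, 9.10 and 15.3 TPM in clamp null males, against 10.9, 9.28 and 30.8 TPM in control males, and 13.7, 19.7 and 10.4 TPM in clamp null females, against 8.40, 17.2 and 9.56 TPM in control females.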

How the data were processed

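RNA-seq of whole L3 larvae was analysed in 12 libraries. The authors trimmed the paired reads with Trim Galore and deposited Salmon transcript abundances as TPM (Drosophila release 6.29). The submitters' processing notes also name FastQC, cutadapt and Bowtie2, without versions. Counts were not analysed here, so depth and counting error are unknown. Groups came from the sample titles, since the labels' sex field goes with genotype and contradicts them.

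Transcript TPM were summed per gene with the Ensembl 115 annotation (BDGP6.54, the same build), which held 29926 of the 29936 transcripts. Those averaging 1 TPM or more were tested on log2(TPM + 1) with limma 3.58.1 (R 4.3.3), with a trended variance, over all 12 libraries in 4 groups, and p-values were Benjamini-Hochberg adjusted over 11145 genes. Summed levels were compared by exact permutation (SciPy 1.17.1). Scripts were tested on simulated data. The members and lists were chosen with earlier results of these data known. Of 109 list entries, 102 matched a gene. The text names every L paralog and its partner and, of the standard genes, the highest of each complex, the 3 with the largest called rise or fall per comparison and those called against the majority or with a called difference between the sexes. Standard genes named for the lack of a call, the numbered paralogs and the transcripts were chosen after their values were seen. Alternatives were a pseudocount of 0.1, a mean of 5 TPM, no filter, median-of-ratios scaling, no trend, the replicate block, single comparisons and each library left out. Added after the data were seen were library 6 as the only clamp null male, rescaling without the late L3 genes, transcript shares and the mitochondrially encoded genes. No sequences are shown.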

Additional observations from a re-analysis of the deposited data

Results flagged for a closer look

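The genotype effect differed between the sexes, by the interaction test in limma at an adjusted p below 0.05, for 17 of the 20 L paralogs, and for 4 with a pseudocount of 0.1. Each value is the male effect minus the female effect on the log2(TPM + 1) scale. In complex I the differences were −3.47 for ND-20L, −4.38 for ND-24L, −2.82 for ND-49L and −4.61 for ND-B14.5AL, and −2.68 for the numbered ND-51L2. In complex II they were −3.42 for SdhAL, −4.64 for SdhBL and −3.20 for SdhCL. In complex III they were −4.27 for UQCR-14L and −4.01 for UQCR-6.4L. In complex IV they were −3.63 for COX4L, −5.11 for COX5BL, −2.94 for COX6AL, −4.18 for COX6CL, −3.79 for COX7AL and −5.66 for COX7CL, and −2.85 for the numbered COX6AL2. In complex V they were −4.62 for ATPsynCF6L and −4.46 for ATPsynGL. Each of these genes was at 4.18 TPM or less in every female library, so the differences are set almost wholly by the male libraries, of which clamp null males 4 and 5 had testis marker sums of 19.3 and 27.2 TPM. The part of testis content was not tested.

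Among the standard genes the difference between the sexes was called for ND-MLRQ (0.93) and for ND-B8 (−2.73). ND-B8 was listed at 0 in all 6 clamp null libraries.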

How the results depend on the processing

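The count of L paralogs called lower in clamp null males was 19 and moved to 12 when the mean had to reach 5 TPM, where fewer of them were tested. In the same setting the count higher in control males than in control females moved to 12 and that of called differences between the sexes, 17, to 10. With a pseudocount of 0.1 the last moved to 4. Library 6 as the only clamp null male turned the direction of ATPsynepsilonL in males (0.70) and of the differences between the sexes of ATPsynbetaL (0.40) and ATPsynepsilonL (0.80). Leaving out each library in turn gave 42 to 53 standard genes higher in males, the lowest without clamp null male 6, 26 to 41 in females, 19 to 20 L paralogs lower in males and 14 to 20 called differences between the sexes. None of the 92 member values named turned its direction in that setting. Median-of-ratios scaling moved the median over all genes to −0.24 in males, −0.02 in females and 0.06 between control sexes.

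The deviations of male and female libraries of the same number correlated at 0.264, −0.061 and 0.146 in controls. Those of different numbers ran from −0.240 to 0.098, so 0.264 and 0.146 exceeded them all. In clamp null larvae the same number gave −0.016, −0.054 and −0.077, against −0.094 to 0.113 for different numbers. The numbers were not taken as pairs in the main fit. With the replicate block, 19 L paralogs were higher in control males, 17 differed between the sexes, and no standard gene did. Depth is unknown, so values near 0 TPM carry no stated precision.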
